A study of Mus musculus with 43 samples.

Results

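The oligodendrocytes described here were 4 RNA-seq libraries from immunocompetent control mice, out of 43 libraries in the series. They were chosen by their labels alone, as the control samples whose cell type is given as oligodendrocyte, and they were compared with the mean of the other glia of control mice, which were 6 libraries each of oligodendrocyte precursor cells (OPCs), astrocytes and microglia. The mice were 3 months old and came from 6 littermate pairs, each of which held 1 control and 1 Rag2-/- mouse. A control mouse carried at least 1 working copy of Rag2, the gene whose product cuts DNA to assemble antibody and T cell receptor genes. Controls of pairs 1, 2, 3 and 5 were Rag2+/- and those of pairs 4 and 6 were Rag2+/+. Oligodendrocytes came from the controls of pairs 1, 3, 5 and 6, of which the mouse of pair 5 was the only female, and the 18 libraries of other glia came from all 6 control mice. None of the mice was treated. After perfusion with saline, the cells of the dissociated cortex were passed over dishes coated with antibodies and lysed on the dish to which they had bound, a method called immunopanning, in which a hybridoma antibody against galactocerebroside (GalC) held the oligodendrocytes. Every library therefore held the RNA of many cells of 1 mouse, and libraries were pooled for sequencing by cell type, so that differences of lane and of cell type cannot be told apart.

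Oligodendrocytes wrap axons of the central nervous system in myelin, a stack of lipid-rich membrane that lets action potentials jump between nodes and through which the cell also feeds the axon. They arise from OPCs, which divide and express the receptor PDGFRα. On leaving the cycle a cell first becomes a newly formed oligodendrocyte and then, under the transcription factors OLIG2, SOX10 and MYRF, switches on myelin proteins and the enzymes that make myelin lipids. In the adult cortex most oligodendrocytes are mature and myelinating.

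The files held read pairs counted per gene, and the 22 control libraries had between 6499417 and 13709286 counts on genes. The oligodendrocyte libraries held 12649088, 10620677, 9009143 and 11962533 counts in the order of pairs 1, 3, 5 and 6, which is the order of every list of 4 values below. Levels are given as CPM (counts scaled to a common library total) after TMM normalization, in which edgeR rescales library sizes so that most genes are alike between libraries. On a log2 scale, the median SD of a gene across replicates was 0.57 in oligodendrocytes, against 0.28 in OPCs, 0.27 in astrocytes and 0.29 in microglia, over the 8920 genes used. Replicates of oligodendrocytes thus varied more than those of the other types, while the fit gives a gene 1 spread for all types. In these bulk libraries fewer cells of a type and less RNA per cell cannot be told apart.

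Defining markers went with the label of the 4 libraries. The summed level of 9 oligodendrocyte markers, Mbp, Mog, Mobp and Mag among them, was 35440, 26050, 35060 and 31970 CPM, above every other library. It was 353 to 1250 in OPCs, 3923 to 5594 in astrocytes and 102 to 145 in microglia, so these markers were higher in astrocyte libraries than in those of the other 2 types. Markers of the other glia were present in oligodendrocyte libraries. On CPM of all gene counts, without TMM, the median astrocyte marker stood at 3.18% ± 1.89 (SD, n = 4) of its level in astrocytes, the median microglia marker at 3.99% ± 2.95 of its level in microglia and the median of 11 OPC genes at 6.73% ± 4.04 of its level in OPCs. Under TMM these medians were 5.27%, 6.69% and 12.7%, and by library they ran from 3.01% to 11.7% for astrocyte markers, from 3.14% to 11.9% for microglia markers and from 7.31% to 20.8% for OPC genes. Astrocyte markers were thus highest in pair 6, and microglia markers and OPC genes in pair 3. In turn, the median oligodendrocyte marker stood at 26.1% of its oligodendrocyte level in astrocytes, 3.07% in OPCs and 0.246% in microglia. All 10 genes of the neuron list were detected too, and their summed level was 1254, 726, 2760 and 3674 CPM. That sum ran from 427 to 803 in OPCs, 189 to 268 in astrocytes and 64.0 to 149 in microglia, so that the libraries of pairs 5 and 6 stood furthest from the other glia. All 10 neuron genes were higher in oligodendrocytes than in the mean of the other glia, 8 of them passed the test against each type, and each had its highest value in the library of pair 5 or 6. Snap25, which encodes a protein of synaptic vesicle release, was at 602, 307, 1321 and 2373 CPM, against 248 in OPCs, 112 in astrocytes and 39 in microglia on average (log2 fold change 3.48 ± 0.27, adjusted p = 2.7e-10), and the library of pair 3 overlapped with OPCs. Without the libraries of pairs 5 and 6, 9 of the 10 neuron genes were still higher than the mean and 3 were higher than in each type. The part of neuronal RNA in the results was not tested, and the counts of genes are therefore also given without the oligodendrocyte libraries of pairs 5 and 6. Leaving these out also removes the only female and the only Rag2+/+ oligodendrocyte library and lowers the number of libraries. Changes in that fit cannot be assigned to any of these. Of 6 endothelial genes none was higher and 1 was lower, and of 9 mural and fibroblast genes 2 were higher and 2 lower. The lists of ependymal, lymphocyte and Schwann cell genes each had 1 gene with enough counts to test.

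**Figure D1:**
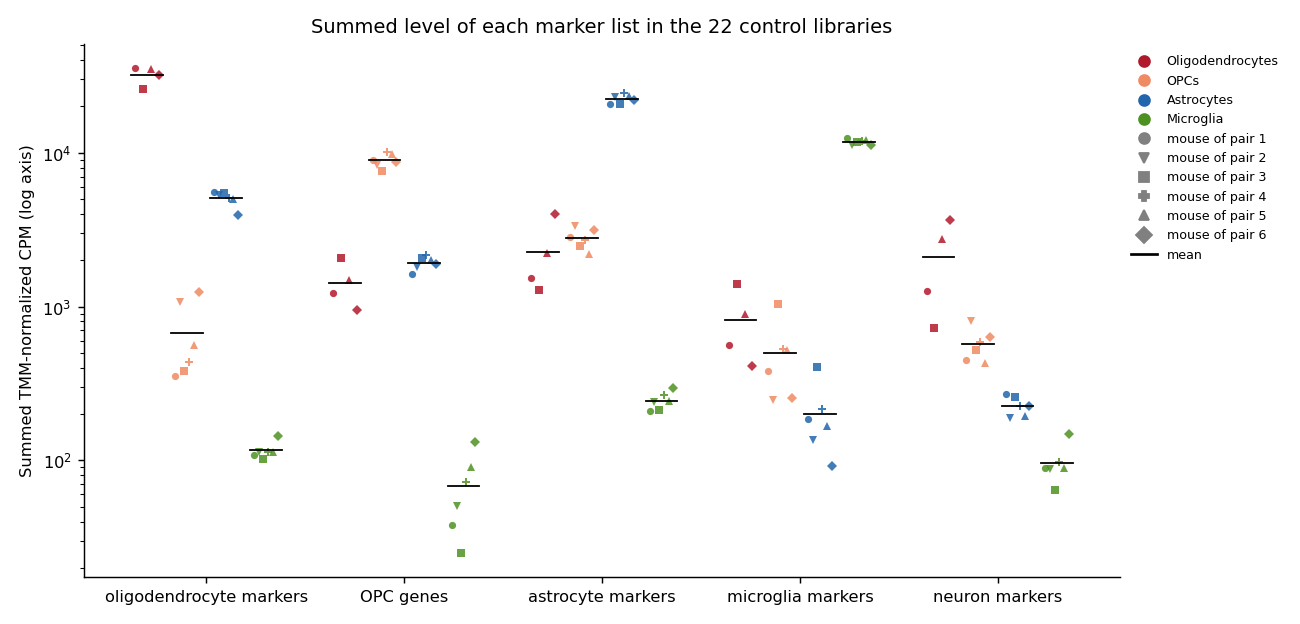
Summed TMM-normalized CPM of 5 marker lists (log axis) in each of the 22 control libraries, coloured by cell type, with a marker shape for each mouse and a bar for the mean. Oligodendrocyte markers were 26050 CPM or more in the 4 oligodendrocyte libraries and at most 5594 in any other, and neuron markers were highest in the oligodendrocyte libraries of pairs 5 and 6.

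Genes of myelin proteins were among those that differed most between oligodendrocytes and the other glia, and Mbp, Mobp, Cldn11 and Mal were among the 10 with the largest fold changes of the protein-coding genes that were higher than in each type without overlap between libraries. Of 19368 genes with enough counts, 7470 (38.6%) differed from the mean of the other glia at an adjusted p under 0.05 in edgeR's quasi-likelihood test, 3920 of them (20.2%) higher and 3550 (18.3%) lower, with sex as a further term. The mean of the other glia was taken over the fitted log values of the 3 types, so a type with little of a gene pulls it down. A gene can therefore be higher than that mean and still lower than in some of the types. The median log2 fold change of all genes tested was -0.11. The share of genes that differed was 27.6% against OPCs alone (12.4% higher, 15.2% lower), 38.1% against astrocytes (19.4% and 18.7%) and 59.1% against microglia (29.4% and 29.7%). A stricter reading asked for an adjusted p under 0.05 and at least a 2-fold difference against each of the 3 types, and 762 genes (3.93%) were higher and 497 (2.57%) lower by it. In 654 genes (3.38%) all 4 oligodendrocyte libraries lay above the other 18, and in 258 (1.33%) all 4 lay below. Without the libraries of pairs 5 and 6, 547 genes were higher and 276 lower than in each type, and 402 of the 547 were among the 762. Replicate 6 held the highest oligodendrocyte value for 300 of the 762 genes and replicate 5 for 241, against 156 for replicate 1 and 65 for replicate 3, whereas over all genes the 4 libraries were highest about equally often (4690 to 5080 genes each).

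The 762 genes were mostly abundant in oligodendrocytes, with a median of 46.8 CPM against 14.3 CPM in the highest other type. The 497 genes were scarce, with a median of 1.70 CPM in oligodendrocytes, and 153 of them stayed under 1 CPM in every oligodendrocyte library. Protein-coding genes made up 83.1% of the 762 and 81.1% of the 497, against 72.9% of all genes tested, and long noncoding RNAs 6.69%, 8.85% and 9.85%.

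Myelin membrane and adhesion genes had the largest median fold change of the lists against the mean of the other glia. All 26 listed genes were tested, 24 were higher than the mean of the other glia and none was lower, with a median log2 fold change of 4.18, where all genes stood at -0.11. 17 of the 26 were higher than in each other type, and in 17 all 4 libraries lay above the other 18. Their median level in OPCs was 10.2% of that in oligodendrocytes, in astrocytes 28.8% and in microglia 1.15%. Together they took 2.95%, 2.67%, 2.48% and 2.06% of all gene counts, or 4.92% to 6.49% of the counts that did not lie on mitochondrially encoded genes, against at most 1.27% in any other library on the second scale. By the strict reading other lists had larger shares, with all 11 tested mitochondrially encoded genes and 8 of 10 neuron genes higher than in each type. Against astrocytes alone, neuron genes had a larger median log2 fold change than myelin membrane genes (3.12 against 1.81).

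Mbp, the gene of myelin basic protein, which zips the inner faces of the membrane together, reached 19519, 14405, 23435 and 20717 CPM. OPCs ranged from 153 to 524, astrocytes from 2247 to 2918 and microglia from 40.2 to 64.7 CPM. The 4 oligodendrocyte values lay far above the rest, and the log2 fold change was 5.86 ± 0.18 (SE) against the mean of the other glia (adjusted p = 4.5e-17). Mobp, the gene of a small basic protein of compact myelin, had the largest fold change of the list, at 6.06 ± 0.24 (adjusted p = 2.3e-15). It stood at 5301, 3514, 5248 and 4764 CPM in oligodendrocytes, 32 to 151 in OPCs, 624 to 735 in astrocytes and 5.27 to 11.2 in microglia, again without overlap. On GRCm39, by the GENCODE annotation, Mobp lies at chr9:119973770-120011273 and Mog at chr17:37321521-37334350.

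Genes of the outer and innermost layers of the sheath were less abundant. Mog, which encodes a glycoprotein of the outermost myelin surface, was at 309, 311, 229 and 171 CPM, much the same in pairs 1 and 3 and lower in pairs 5 and 6. The other groups lay at 1.15 to 18.9 in OPCs, 32.4 to 117 in astrocytes and 0.322 to 0.934 in microglia, all under the lowest oligodendrocyte value (log2 fold change 5.10 ± 0.36, adjusted p = 8.1e-11). Other annotated genes overlap 64.6% of the exonic length of Mog, so part of its reads may have been left uncounted. Mag, whose protein holds the innermost layer to the axon, was at 575, 505, 374 and 277 CPM, and Cldn11, which seals the layers against each other, at 334, 226, 214 and 117. Their highest values were in pair 1 and their lowest in pair 6, and the log2 fold changes were 4.20 ± 0.38 and 5.59 ± 0.45. Mal, a proteolipid that carries membrane to the sheath, was at 1613, 1194, 773 and 1079.5 CPM and Ermn, an actin-binding protein of the outer layers, at 845, 524, 572 and 547. Opalin, a glycoprotein of the paranodal loops, was at 219, 299, 232 and 163 CPM against 8.68 in OPCs and 62.9 in astrocytes on average. Cnp, an enzyme of the cytoplasmic channels of myelin, had a smaller distance to astrocytes, with 1341 CPM against 484 there (log2 fold change against astrocytes 1.45 ± 0.30, adjusted p = 5.2e-04).

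**Figure D2:**
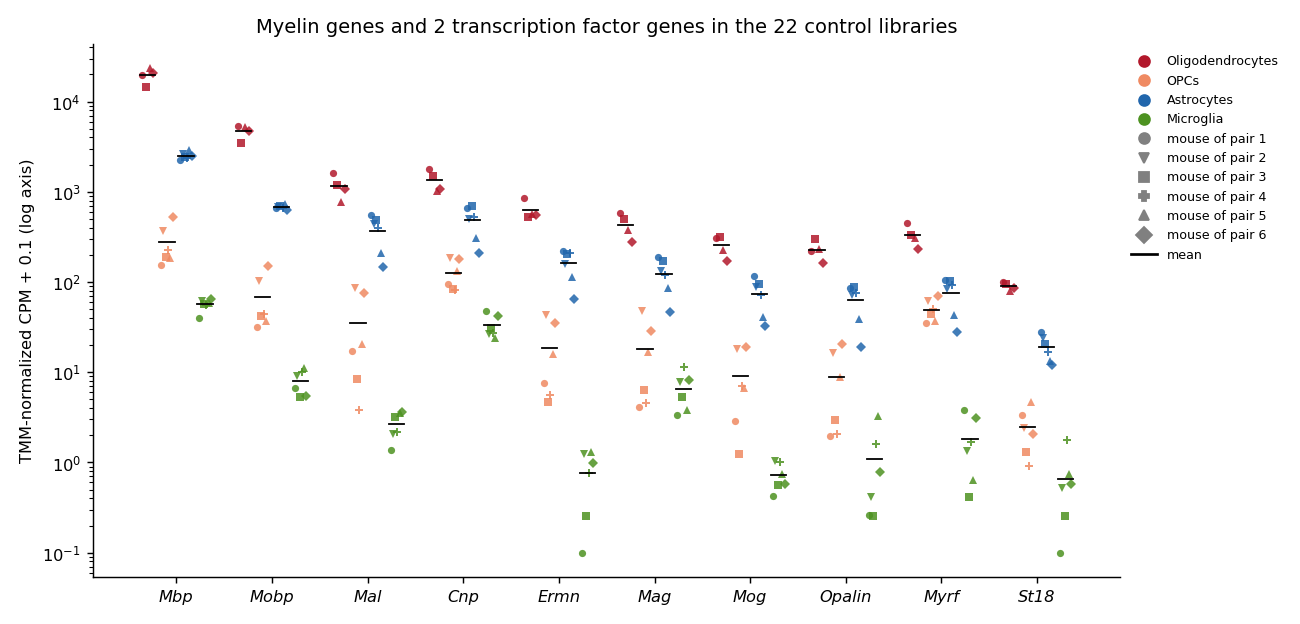
TMM-normalized CPM plus 0.1 (log axis) of 8 myelin genes and the transcription factor genes Myrf and St18 in each of the 22 control libraries, coloured by cell type, with a marker shape for each mouse and a bar for the mean. The 4 oligodendrocyte libraries lay above the other 18 for each of the 10 genes, astrocytes came next, and microglia had the lowest mean for each of them.

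The membrane genes did not all follow that pattern. Nfasc and Cntn2, adhesion molecules of the paranode and the juxtaparanode, were higher than in each other type, at 3.59 and 4.51 on the log2 scale against the mean. Tspan2, Plekhb1, Bcas1 and Epb41l3 were too, with log2 fold changes of 4.54, 4.42, 4.61 and 2.60. Gpm6b, a tetraspan membrane protein gene, was at 1050.0 CPM in oligodendrocytes and 968 in astrocytes and did not pass the test between them (adjusted p = 0.73). Omg and Pllp missed it against OPCs, at 234 against 209 CPM and 66.2 against 92.3 CPM (adjusted p = 0.61 and 0.33). Pmp22 and Cd9, a myelin protein of peripheral nerve and a tetraspanin, were the 2 genes that missed the test against the mean. Both were highest in microglia, at 927 and 195 CPM against 240.4 and 56.6 in oligodendrocytes. Within the list, 16 genes had their highest oligodendrocyte value in pair 1, 6 in pair 3, 3 in pair 5 and 1 in pair 6, while the neuron genes peaked in pairs 5 and 6.

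RefSeq promoter sequences, 250 bases before to 50 bases after the gene start on the build GRCm38.p6, were at hand for 20 of the 26 genes. Printed here are 4 of those that hold letters bound by SOX10, by MYRF or by both in genes of this group. Capitals mark every match on either strand to ACAAAG (SOX10), to CTGGCAC or CTGGTAC (MYRF) and to CAGCTG (an E-box, bound by OLIG2). The Mobp promoter, with 6 matches to ACAAAG, lies at chr9:120149492-120149791 on the plus strand and the Cnp promoter at chr11:100574689-100574988 on the plus strand. The Mog promoter lies at chr17:37023349-37023648 and the Opalin promoter at chr19:41077064-41077363, both on the minus strand.
Mobp: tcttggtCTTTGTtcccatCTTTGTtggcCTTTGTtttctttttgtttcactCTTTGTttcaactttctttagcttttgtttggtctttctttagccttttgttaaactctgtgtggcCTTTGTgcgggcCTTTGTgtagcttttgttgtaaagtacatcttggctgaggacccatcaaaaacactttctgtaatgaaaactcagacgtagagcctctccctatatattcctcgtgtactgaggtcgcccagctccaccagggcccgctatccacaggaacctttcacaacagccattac
Cnp: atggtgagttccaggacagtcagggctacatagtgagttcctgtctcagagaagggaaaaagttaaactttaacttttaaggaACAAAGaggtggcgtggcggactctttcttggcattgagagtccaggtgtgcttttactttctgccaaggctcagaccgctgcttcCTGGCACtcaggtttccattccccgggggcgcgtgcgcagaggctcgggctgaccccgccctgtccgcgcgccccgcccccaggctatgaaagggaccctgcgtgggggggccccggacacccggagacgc
Mog: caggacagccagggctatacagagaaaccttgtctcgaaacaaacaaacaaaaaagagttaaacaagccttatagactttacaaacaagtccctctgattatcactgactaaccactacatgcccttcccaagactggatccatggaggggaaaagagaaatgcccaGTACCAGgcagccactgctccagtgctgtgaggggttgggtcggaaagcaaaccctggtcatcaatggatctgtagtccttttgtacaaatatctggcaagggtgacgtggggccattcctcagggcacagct
Opalin: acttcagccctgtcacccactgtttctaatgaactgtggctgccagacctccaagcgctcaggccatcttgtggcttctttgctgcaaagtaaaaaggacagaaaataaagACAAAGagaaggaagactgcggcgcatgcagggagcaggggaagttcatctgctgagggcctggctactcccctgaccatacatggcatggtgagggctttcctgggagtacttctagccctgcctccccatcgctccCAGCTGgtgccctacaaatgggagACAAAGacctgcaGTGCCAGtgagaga
In Cnp the ACAAAG began 167 bases before the start and the CTGGCAC 81 bases before it. Mog held GTACCAG, the reverse complement of CTGGTAC, 83 bases before its start, and Opalin had matches to all 3. Of the 20 promoters, 5 (25%) held ACAAAG, 5 (25%) a MYRF sequence and 3 (15%) CAGCTG. The same shares were 13.7%, 6.57% and 15.6% of the 11864 matched promoters of tested genes, and 18.7%, 7.07% and 16.1% of all 27025 promoters. Among 496 matched promoters of the 762 higher genes they were 12.5%, 8.67% and 20%. A match says only that the letters are there.

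Genes of the myelin cytoskeleton were higher as well. Of 15, 14 were higher than the mean of the other glia and none lower, 9 were higher than in each type, and the median log2 fold change was 2.70. Tubb4a, a tubulin enriched in myelinating cells, was at 3114, 2483, 2200.4 and 2469 CPM against 303, 797 and 15.1 in OPCs, astrocytes and microglia on average (log2 fold change 4.06 ± 0.24, adjusted p = 3.2e-12). Its 4 values lay above all others. Tppp, which nucleates microtubules from Golgi outposts, was at 759, 573, 441 and 629 CPM (log2 fold change 2.72 ± 0.15), and Septin4 and Anln, whose proteins form filaments that stabilise myelin, were higher, with log2 fold changes of 4.15 ± 0.31 and 4.50 ± 0.36. Gsn, the gene of an actin-severing protein, was the steadiest gene of the list, at 106, 104, 88.7 and 101 CPM, with a log2 fold change of 2.70 ± 0.22. Cryab, a small heat shock protein, was at 1039.5, 830.2, 717 and 403 CPM (log2 fold change 4.11 ± 0.24). Mapt, the gene of tau, was at 327, 616, 218 and 305 CPM and had its highest value in pair 3. Septin2 alone missed the test against the mean.

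The transcription factors split between those of the finished cell and those of the lineage as a whole. Of 14 lineage factors 11 were higher than the mean of the other glia and 1 lower (median log2 fold change 1.95), yet against OPCs 5 were higher and 3 lower, with a median of -0.37 where all genes stood at -0.15. Myrf, whose protein drives myelin genes directly, was at 450.2, 330.2, 304 and 229 CPM against 35.1 to 69.2 in OPCs, 27.7 to 105 in astrocytes and 0.31 to 3.7 in microglia, with no overlap (log2 fold change 4.13 ± 0.28, adjusted p = 4.0e-11). St18, a zinc finger factor of the MYT family, was at 99.5, 94.3, 78.7 and 85 CPM and Zfp536, another zinc finger gene, at 119, 99.8, 71.5 and 70.6. Both were higher than in each type (log2 fold changes 4.92 ± 0.31 and 3.43 ± 0.30). Nkx6-2, a homeobox factor of myelinating oligodendrocytes, was at 30.1, 25.8, 14.9 and 4.58 CPM and was higher than in OPCs by 4.20 ± 0.77 but missed the test against astrocytes (adjusted p = 0.055).

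Factors that OPCs already use were not higher than in OPCs. Olig2, which specifies the lineage, was at 50.6, 74, 56.6 and 64.5 CPM in oligodendrocytes and 143 to 256 in OPCs, and Olig1, its neighbour on chromosome 16, was at 211, 260.5, 174 and 138 and 415 to 954. Both were lower than in OPCs without overlap, with log2 fold changes of -1.55 ± 0.30 and -1.49 ± 0.40 (adjusted p = 4.3e-04 and 0.0081). Sox10, which stays on through the lineage, was at 213 CPM in oligodendrocytes and 268 in OPCs (adjusted p = 0.63). Tcf7l2, a marker of newly formed oligodendrocytes, was at 52.1 and 52.9 CPM (adjusted p = 0.91), and was lower than the mean of the other glia (log2 fold change -0.39 ± 0.15, adjusted p = 0.043), a call lost in most alternative fits, DESeq2 size factors and the mouse as replicate block (adjusted p = 0.0942) among them, with adjusted p-values from 6.28e-06 under library totals to 0.296 without the libraries of pairs 5 and 6. Of 8 progenitor and inhibitory factors none was higher and 3 were lower. Hes1, a target of Notch that holds back differentiation, was at 1.6, 0.724, 2.35 and 0.164 CPM and lower than in each type (log2 fold change -2.90 ± 0.44), although its groups overlapped. Hes5, its relative, was at 4.93, 0.121, 0.392 and 0 CPM with 1 higher library, and Id2, an inhibitor of E proteins, was lower than the mean (log2 fold change -2.16 ± 0.29).

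Lipid genes were divided, with 2 of 16 sphingolipid genes, 2 of 12 fatty acid genes and none of 22 cholesterol genes higher than in each type. Ugt8a makes galactocerebroside, the lipid that the panning antibody binds, and was at 556, 348, 258 and 355 CPM against 98.5, 102 and 1.62 in OPCs, astrocytes and microglia (log2 fold change 3.83 ± 0.29, adjusted p = 1.8e-10). Fa2h, which hydroxylates its fatty acid, was at 633, 526, 340.2 and 395 CPM (log2 fold change 4.56 ± 0.30). These were the 2 sphingolipid genes that were higher than in each type. Of the 16, 6 were higher and 4 lower than the mean, with a median of 0.21. Under library totals 3 were higher and 8 lower with a median of -0.64, where the median of all genes was -0.93. Galc, the lysosomal enzyme that breaks galactocerebroside down, was at 29.2, 17.3, 23.9 and 32.9 CPM and did not differ by the test (log2 fold change -0.35 ± 0.17, adjusted p = 0.1). Cers2, the ceramide synthase of very long chains, was higher than the mean (log2 fold change 1.19 ± 0.14).

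Of 12 fatty acid genes 7 were higher and 2 lower than the mean (median 0.68; under library totals 4 and 5, median -0.15), and Elovl7 and Scd1 were higher than in each type. Elovl7, a chain elongase, was at 83.1, 83.2, 73.5 and 81.5 CPM (log2 fold change 3.89 ± 0.31) and Scd1, a desaturase, at 728, 536, 691 and 731 CPM (log2 fold change 3.77 ± 0.18). Scd2, the more abundant desaturase, was at 2165 CPM and astrocytes had 2087 (adjusted p = 0.87). Of 22 cholesterol synthesis genes 6 were higher and 2 lower than the mean, none was higher than in each type, and the median was 0.09. Under library totals 1 was higher and 12 lower with a median of -0.79, and the median was -0.07 under totals without mitochondrially encoded genes. They sat between the other types, as 19 of the 22 were lower than in astrocytes (median -1.69) and 20 were higher than in microglia (median 1.96), while against OPCs 2 were higher and 2 lower. Msmo1, a sterol demethylase, was at 92, 103, 70.3 and 97.9 CPM against 550.4 in astrocytes, 121 in OPCs and 52 in microglia.

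Genes of coupling, transport and metabolic support of axons were mixed. Gjb1, the gene of a gap junction protein of oligodendrocytes, was at 41.1, 61.7, 29.2 and 16.7 CPM and was higher than in each type without overlap (log2 fold change 4.54 ± 0.36). Of 6 genes of gap junctions and ion transport 5 were higher than the mean and none lower (median 2.68). Slc12a2, a chloride importer, was at 504, 368, 195 and 311 CPM and higher than in each type (log2 fold change 1.90 ± 0.21).

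Of 10 genes for metabolic support 6 were higher and 3 lower (median 0.76), and 4 and 4 under library totals (median -0.11). Aspa, which splits N-acetylaspartate received from neurons into acetate, was at 209.5, 178, 107 and 128 CPM against 4.54 in OPCs, 41.9 in astrocytes and 1.55 in microglia (log2 fold change 4.61 ± 0.36, adjusted p = 3.4e-10). Its 4 values did not overlap with any other library. Slc16a1, the monocarboxylate transporter through which lactate reaches axons, was at 45.4, 39.5, 35.8 and 56 CPM and higher than the mean (log2 fold change 0.90 ± 0.20, or 0.05 under library totals), but it missed the test against astrocytes (adjusted p = 0.25). Both lactate dehydrogenase genes were lower in all 4 libraries than in any of the other 18. Ldha was at 31.9, 41.6, 51.5 and 43.1 CPM against 77.8, 102 and 69.8 in OPCs, astrocytes and microglia (log2 fold change -0.96 ± 0.17, adjusted p = 8.2e-05). Ldhb was at 28.7, 39.5, 35.1 and 37.5 CPM (log2 fold change -1.43 ± 0.16). Car2, a carbonic anhydrase long used as an oligodendrocyte marker, was at 444 CPM and astrocytes had 294 (adjusted p = 0.19).

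Of the 11 iron genes tested Fth1 and Trf were higher than in each type. Fth1, the heavy chain of ferritin, was at 7737, 6223, 10211 and 7299.9 CPM, and microglia, the next highest type, had 2989 to 3663 (log2 fold change against the mean 2.47 ± 0.14, adjusted p = 1.1e-12). Trf, the iron carrier transferrin, was at 1019, 1324, 705 and 594 CPM (log2 fold change 2.25 ± 0.29). Both were higher than in each type with no overlap. These 2 of the 11 were higher than the mean and 5, Ftl1, Slc11a2, Slc40a1, Steap3 and Aco1, were lower, with a median of -0.31. The lower genes were 3 in voom and in heterozygous controls, and 1, beside 3 higher, without the oligodendrocyte libraries of pairs 5 and 6. Under library totals 8 were lower and none was higher than in each type. Per kilobase of exon, Fth1 had the highest level of any nuclear protein-coding gene in oligodendrocytes, at 2235 CPM per kb. It has processed copies elsewhere in the genome, other genes overlap 41.5% of its exonic length, and reads that fit several places were left uncounted, so its level is uncertain. Mbp followed at 2003 and Tubb4a at 1147 CPM per kb. Cst3, Cox6a1, Mobp, Actb, Lars2 and Mal were also among the first 10, between 412 and 785 CPM per kb. Of these Cst3, a protease inhibitor, and Actb, cytoskeletal actin, were lower than the mean of the other glia (-1.37 ± 0.19 and -0.49 ± 0.14, the latter lost at an adjusted p = 0.74 without the libraries of pairs 5 and 6), Cox6a1, a subunit of cytochrome c oxidase, was higher (1.72 ± 0.13), and Lars2, a mitochondrial leucyl-tRNA synthetase, was at 5727, 6384, 11157 and 7508 CPM and missed the test.

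Receptor genes differed in both directions. Of 21 receptor genes 14 were higher and 4 lower than the mean (median 1.80), but against OPCs 7 were higher and 6 lower. Lpar1, a receptor of lysophosphatidic acid, was at 234, 133, 235 and 200.1 CPM against 5.83 in OPCs and 39.4 in astrocytes (log2 fold change 4.94 ± 0.33, adjusted p = 2.7e-11). Gpr37, an orphan receptor of mature oligodendrocytes, and Unc5b, a netrin receptor, were higher than in each type as well (4.63 ± 0.39 and 4.09 ± 0.39). S1pr5, a sphingosine 1-phosphate receptor, was at 101, 89.2, 62.9 and 58.6 CPM, above every other library, but missed the test against astrocytes (adjusted p = 0.068). Gpr17, a receptor that marks the step into differentiation, was at 169.7, 213, 183 and 49.4 CPM and lower than in OPCs, which had 596 (-1.95 ± 0.48). Notch1 was at 19.1, 28.5, 39.2 and 34.1 CPM against 114, 151 and 124 in OPCs, astrocytes and microglia, lower in all 4 libraries than in any other (log2 fold change -2.09 ± 0.17, adjusted p = 4.9e-10). Of 7 inhibitors of axon growth 6 were higher and none lower than the mean (median 2.44), while against each of OPCs, astrocytes and microglia 1 was lower and 5, 6 and 6 were higher. Rtn4, the gene of Nogo, was at 1164, 1035, 772 and 1029 CPM and Efnb3, an ephrin, at 313, 264, 163 and 158, and both were higher than in each type (1.81 ± 0.15 and 4.42 ± 0.28).

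Along the lineage the libraries lay at its mature end. The 11 OPC genes were lower than in OPCs without exception, with a median log2 fold change of -2.96 where all genes stood at -0.15. Pdgfra, the receptor by which OPCs were panned, was at 139, 262, 218 and 116 CPM against 1410.1 to 1891 in OPCs. Of 16 genes of newly formed oligodendrocytes 11 were higher and 2 lower than the mean (median 1.11), and against OPCs 3 were higher and 4 lower. Enpp6, a choline phosphodiesterase used to mark newly formed cells, was at 128, 90.2, 35.5 and 70.9 CPM and higher than in each type (4.71 ± 0.48), whereas Itpr2, a calcium channel of the endoplasmic reticulum also used for that stage, was at 58.9, 118, 74.6 and 37.7 CPM and lower than in each, although its groups overlapped (-1.26 ± 0.20). Of 18 genes of mature states 16 were higher and 1 lower than the mean (median 3.40), and against OPCs 13 were higher and none lower. Apod, a lipid-binding apolipoprotein, was at 986, 754, 571 and 836 CPM, Ptgds, a prostaglandin synthase, at 2171, 1810.1, 1614 and 1513, and Qdpr, which recycles tetrahydrobiopterin, at 254, 254, 265 and 209.7. All 3 were higher than in each type without overlap, with log2 fold changes of 3.29 ± 0.24, 3.52 ± 0.31 and 3.64 ± 0.23. Grm3, a glutamate receptor, was at 109 CPM in oligodendrocytes and 338 in astrocytes and so was lower than there (-1.63 ± 0.26). Anxa5 was the mature state gene that was lower than the mean (-1.15 ± 0.36), with 1 library at 1.8 CPM, and its call was lost in the 4 mice with an oligodendrocyte library (adjusted p = 0.0541).

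**Figure D3:**
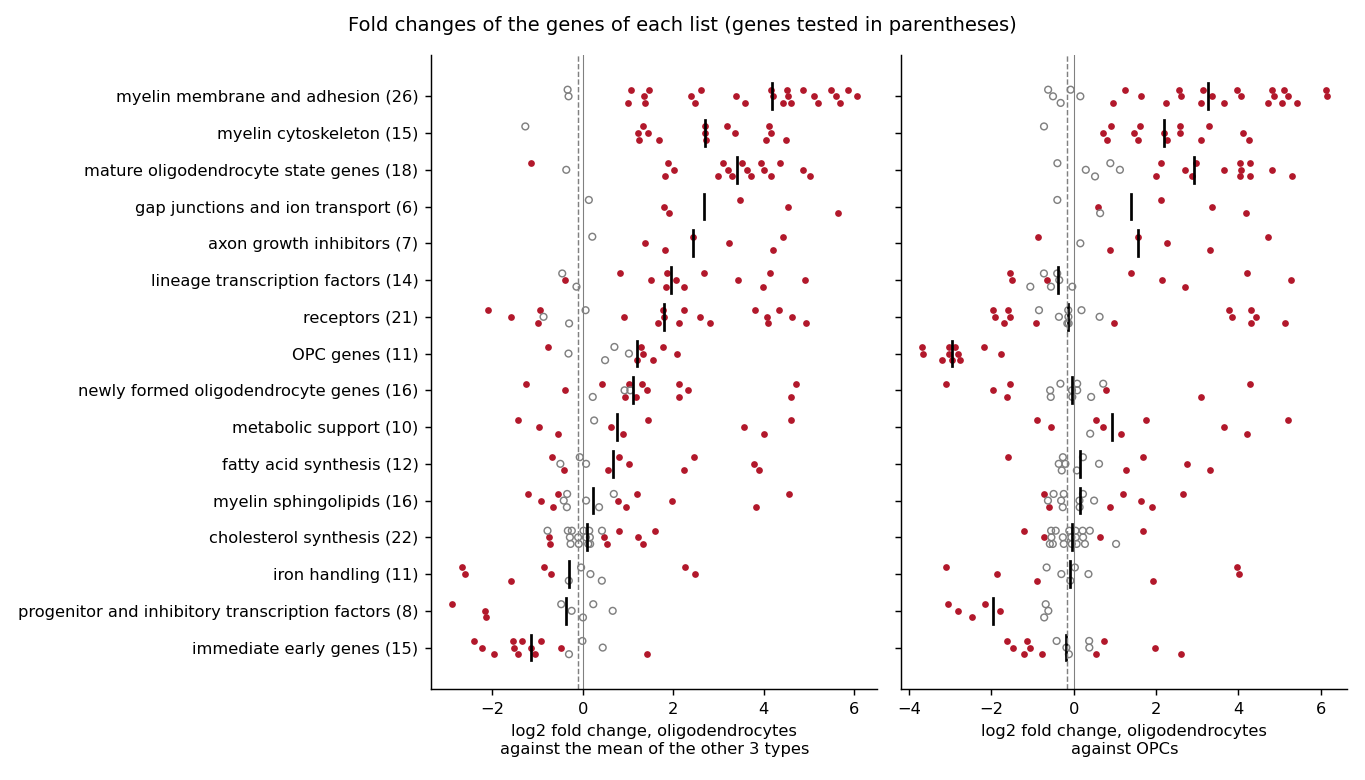
log2 fold changes of the genes of 16 lists (genes tested in parentheses), on the left against the mean of the log values of the other 3 types and on the right against OPCs. Filled points passed an adjusted p of 0.05, open ones did not, bars are list medians and the dashed line is the median of all genes tested. The medians of myelin membrane genes were 4.18 and 3.26, while those of lineage transcription factors were 1.95 on the left and -0.37 on the right and those of OPC genes 1.20 and -2.96. The fitted value of a gene with no count in a type depends on the prior count.

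Immediate early genes, which rise within minutes when tissue is dissociated, were low against the mean of the other glia, and most of all against microglia. Of 15, 11 were lower and 1 higher than the mean (median -1.15), and 3 were lower than in each type. Jun was at 144, 166, 70.5 and 121 CPM against 378, 346 and 347 in OPCs, astrocytes and microglia, and Nr4a1 at 44.4, 63.2, 54.6 and 42.4 against 139.7, 137 and 134. Neither overlapped with another library (-1.54 ± 0.19 and -1.43 ± 0.16). Ier2 was lower than in each type too (-1.97 ± 0.35). Hspa1b, an inducible heat shock protein, was the gene that was higher (1.42 ± 0.36). Against OPCs 4 of the 15 were higher and 6 lower, with a median of -0.18 where all genes stood at -0.15. Against astrocytes 3 were higher and 7 lower (median -0.57), and against microglia 1 was higher and 12 lower (median -2.34).

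Without the oligodendrocyte libraries of pairs 5 and 6, 24 myelin membrane genes were higher than the mean and none lower (median 4.48). Over all 21500 genes tested in that fit, 3268 were higher and 1730 lower. The higher and lower genes then numbered 14 and 0 for the cytoskeleton, 11 and 0 for lineage transcription factors, 0 and 3 for inhibitory factors, 15 and 1 for mature states, 11 and 1 for newly formed cells and 8 and 0 for OPC genes. They numbered 6 and 2 for sphingolipids, 5 and 2 for cholesterol synthesis, 7 and 1 for fatty acids, 5 and 0 for gap junctions and ion transport, 5 and 2 for metabolic support, 3 and 1 for iron, 13 and 3 for receptors and 7 and 0 for axon growth inhibitors. Immediate early genes had 2 higher and 8 lower, mitochondrially encoded genes 10 and 0, nuclear respiratory chain genes 6 and 6, and cytosolic ribosomal protein genes 15 and 6. The calls of OPC genes rest on a mean of log values that microglia pull down. With all oligodendrocyte libraries kept, these genes summed to 1428 CPM on average in oligodendrocytes, against 8939 in OPCs, 1927 in astrocytes and 68 in microglia.

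The 10 protein-coding genes with the largest fold changes among those higher than in each type and without overlap included Fbxw15, Mobp, Mbp, Ermn, Scd3, Cldn11, Nipal4, Prr18 and Mal. Fbxw15, an F-box gene not usually counted among myelin genes, was at 15.7, 18.7, 15.7 and 20.6 CPM against 0.405 in OPCs and 1.55 in astrocytes. No microglia library held a count, so with 3 counts per library as the floor it was at least 58.7-fold higher than there. Prr18, a proline-rich protein gene, was at 421, 259, 500.2 and 456 CPM (5.20 ± 0.17), Scd3, a desaturase close to Scd1 in sequence, at 35.8, 42, 32.3 and 82.7 (5.67 ± 0.45) and Nipal4, a magnesium transporter family member, at 20.6, 24.6, 8.62 and 7.37 (5.50 ± 0.72). Ermn was at 845, 524, 572 and 547 CPM and Mal at 1613, 1194, 773 and 1079.5 (5.68 ± 0.38 and 5.19 ± 0.42).

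The 10 protein-coding genes at the other end were Lrrc9, Slc35d2, Gprc5c, Spag4, Opn1sw, Pemt, Cdca7, Eva1a, Trim43c and Neu3. The first 6 had no count in any oligodendrocyte library. Lrrc9, a leucine-rich repeat gene, was therefore at least 48.5-fold lower than in astrocytes, where it was at 18 to 26.7 CPM, with 3 counts per library as the floor. For Slc35d2, Gprc5c, Spag4, Opn1sw and Pemt the others were at most 2.79 CPM on average, and the depth allowed bounds between 1.31-fold and 6.16-fold. Cdca7, Eva1a, Trim43c and Neu3 were under 1 CPM in every oligodendrocyte library, and the highest mean of another type was that of Eva1a in astrocytes, 28.6 CPM.

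A few transcripts were counted in oligodendrocyte libraries and hardly elsewhere, and immunoglobulin segments were among them. With at least 10 counts in all 4 oligodendrocyte libraries and at most 3 in each of the other 18 as the rule, 6 genes remained of 55416, which were Gm11497, Gm35279, Gm4316, Gm46223, Ighg3 and Igkv16-104. The rule was set after the values were seen. Ighg3, the constant region of an immunoglobulin heavy chain, had 111, 221, 170 and 380 counts and Igkv16-104, a variable segment of the kappa light chain, 42, 88, 108 and 43. No other control library had more than 2 counts of Ighg3 or 1 of Igkv16-104. In Rag2-/- mice, which make no antibody, the 4 oligodendrocyte libraries held 220 to 679 and 26 to 351 counts of the same genes, and no other Rag2-/- library had more than 2. Igkc, the constant region of the kappa chain, had 73, 193, 179 and 352 counts in control oligodendrocytes and up to 151 in control microglia, and 121 to 321 counts in Rag2-/- oligodendrocytes against at most 10 in the other Rag2-/- libraries. Dishes for oligodendrocytes were coated with a hybridoma antibody. Its part in these counts was not tested. The long noncoding RNAs Gm35279 and Gm4316 were also at 115 counts or more and at 75 or more, respectively, in every Rag2-/- oligodendrocyte library, and Gm46223, a processed pseudogene, at 32 or more. Gm11497 did not repeat, with 3 to 16 counts there and up to 9 in other Rag2-/- libraries. The long noncoding RNA Gm42031 had 369, 845, 509 and 732 counts in control oligodendrocytes, and at most 1 in OPCs, 12 in astrocytes and 2 in microglia. Gm43305, another, was at 428, 1006, 978 and 1144 CPM (log2 fold change 5.56 ± 0.21). Both were chosen after their values were seen.

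Mitochondrially encoded genes took 54.6%, 45.8%, 52.2% and 58.3% of the gene counts of the oligodendrocyte libraries. The share was 52.7% ± 5.24 (SD, n = 4), against 26.7% ± 3.32 in OPCs, 32.4% ± 2.64 in astrocytes and 9.22% ± 1.75 in microglia (n = 6 each). All 4 oligodendrocyte libraries lay above the other 18 (exact two-sided permutation tests, adjusted p = 0.00952 for each of 3 comparisons, the smallest they can give). The ribosomal RNA genes mt-Rnr1 and mt-Rnr2 alone took 41.7% to 52.7%, and the 13 protein-coding genes 4.57%, 4.10%, 5.12% and 5.62%, against at most 3.41% in any other library. Of the 37 mitochondrially encoded genes 11 had enough counts to test and all 11 were higher than in each type, with a median log2 fold change of 2.22. The gene of the first subunit of cytochrome c oxidase, mt-Co1, was at 39517, 28860.0, 49982 and 58448 CPM against 11009 in OPCs, 16851 in astrocytes and 4569 in microglia (log2 fold change 2.22 ± 0.14, adjusted p = 7.4e-12). The genes mt-Atp6, mt-Atp8, mt-Co2, mt-Co3 and mt-Nd4l had at most 5 counts in any oligodendrocyte library. They were not among the 11 tested, as they had too few counts in the control libraries of the other types as well. The share of the 13 protein-coding genes therefore rests on the rest of them. Reads that fit several places were left uncounted, and their part here was not tested. Of 92 nuclear genes of the respiratory chain, 15 were higher and 14 lower than the mean, with a median of 0.01, but under library totals 2 were higher and 62 lower (median -0.85). Of 97 cytosolic ribosomal protein genes 26 were higher and 13 lower (median 0.18), but under library totals 1 was higher and 55 lower (median -0.66).

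The number of genes detected depended on whether mitochondrially encoded genes were counted. The parts of mitochondrial share, depth and RNA content in it were not tested. At 1 CPM or more of all gene counts, oligodendrocyte libraries held 14284, 14556, 12653 and 12590 genes. The mean difference was -2849.9 genes from OPCs, -1546 from astrocytes and -1616 from microglia (exact two-sided permutation tests, adjusted p = 0.0143, 0.0143 and 0.019). With mitochondrially encoded genes left out the counts were 16920, 16289, 14389 and 14594. The differences were then -1743.3 from OPCs, -883 from astrocytes and 115 from microglia (exact two-sided permutation tests, adjusted p = 0.0286, 0.314 and 0.81), and the libraries of pairs 5 and 6 were the 2 low ones. The fold changes moved little when these genes were left out before normalization, since 772 genes were then higher and 470 lower than in each type. Scaling by library totals in place of TMM was another matter. With all genes counted, the median log2 fold change of all genes fell to -0.93, and 216 genes were higher and 2483 lower than in each type. The share of higher calls against the mean was then 17.4% where it had been 52.5%. With mitochondrially encoded genes left out and library totals used, the median was -0.24, 522 genes were higher and 706 lower, and 44.6% of the calls were higher. The medians of the myelin membrane genes were 3.41 and 4.07 under these 2 scalings, with 21 of 26 higher and 2 lower under the first and 24 higher under the second.

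**Figure D4:**
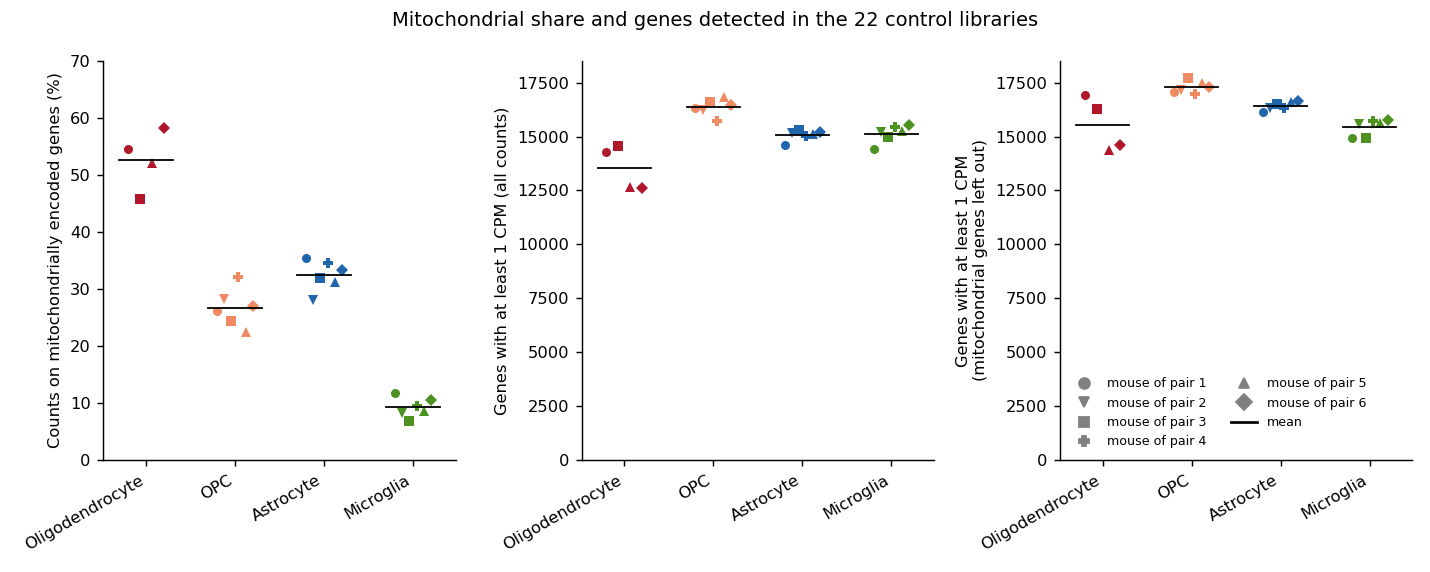
Share of counts on mitochondrially encoded genes, genes with at least 1 CPM, and genes with at least 1 CPM when those genes are left out, for each of the 22 control libraries by cell type, with a marker shape for each mouse and a bar for the mean. Oligodendrocyte libraries had the highest mitochondrial shares, 45.8% to 58.3%, and fewer genes than OPCs on both counts. They overlapped with microglia on both counts and with astrocytes on the second.

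The same comparison in 21 libraries of Rag2-/- mice, other animals on the same lanes, gave a repeat of the measure. Of the 762 genes higher than in each type in controls 749 were tested there, 739 had the same sign against the mean of the other glia and 691 also passed the test. By the strict reading 690 of the 19412 genes tested there were higher in Rag2-/- mice and 494 were shared, 64.8% of the control list and 71.6% of the Rag2-/- list. The lower genes repeated less fully. Of the 497, 491 were tested, 444 had the same sign and 275 also passed, while 836 genes were lower by the strict reading in Rag2-/- mice and 145 were shared, 29.2% and 17.3% of the lists. All 26 myelin membrane genes were tested in Rag2-/- mice, where 24 were higher and 1, Pmp22, was lower (median 4.39, against -0.14 for all genes), and Mbp and Mobp had log2 fold changes of 5.67 and 6.08. Of the neuron genes 9 of 10 were higher there too. The shares of all genes that kept their sign or passed against the mean in Rag2-/- mice were not worked out. The counts of genes against the mean in this paragraph therefore lack a baseline.

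A joint fit of all 43 libraries asked whether the oligodendrocyte contrast itself differed between genotypes. It called 542 of 21368 genes (2.54%) at an adjusted p under 0.05 (3914 at an unadjusted p under 0.05). A fit with a variance of its own for each group, chosen after the spread of the oligodendrocyte libraries was seen, called 0 genes, with 1118 at an unadjusted p under 0.05 and 0.0652 as the smallest adjusted p. Without control oligodendrocyte replicate 1 or 3 the joint fit called 1039 and 862 genes, and without Rag2-/- oligodendrocyte replicate 1 it called 897. None of the 26 myelin membrane genes was among the 542, which says little about them, since only 2.54% of all genes tested were called.

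**Figure D5:**
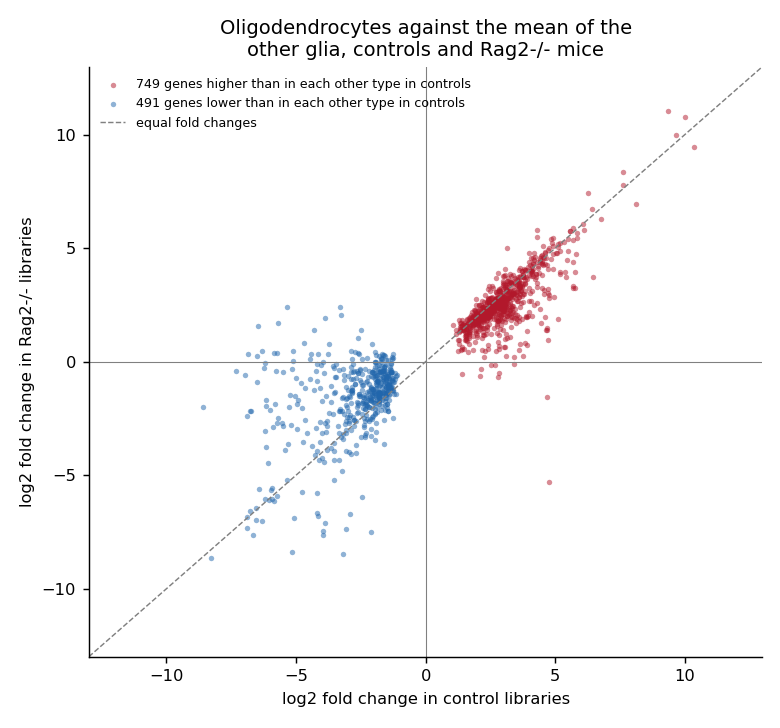
log2 fold change of oligodendrocytes against the mean of the other glia in control libraries (horizontal) and in Rag2-/- libraries (vertical), for 749 genes higher (red) and 491 genes lower (blue) than in each other type in controls that were also tested in Rag2-/- libraries. Red points follow the dashed line of equal fold changes, and 739 of them kept their sign, while blue points spread further from the line and 444 kept theirs; fold changes of genes with no count in a group depend on the prior count.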

How the data were processed

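RNA of immunopanned cortical cells was converted to cDNA, amplified and sequenced. Per the labels and methods, the authors mapped the reads to GRCm39 with STAR 2.7.8a and deposited HTSeq counts of read pairs per gene, as whole numbers, for 55416 genes. The strand and overlap settings of HTSeq are not given in the sources used here. Count rows that name no gene held 33.5% to 40.5% of the oligodendrocyte totals and 39.0% to 51.9% of the others, and were left out.

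Control libraries were grouped by their labels. Counts were normalized by TMM and tested with edgeR 4.0.16 (R 4.3.3) by quasi-likelihood, with cell type and sex as terms, over 19368 genes that passed filterByExpr (minimum count 10, minimum total 15). Oligodendrocytes were contrasted with the mean of the other types, taken on the log scale, and with each. P-values were adjusted by Benjamini-Hochberg over all genes tested (threshold 0.05), and every adjusted p of a gene is from edgeR unless another test is named. A replicate was a mouse together with its own cell isolation and library, and these cannot be told apart. The p-values therefore measure the spread between libraries. For each gene that spread was shared by all cell types, although oligodendrocyte libraries varied most. Rag2-/- libraries were fitted alike (19412 genes), and a joint fit tested the genotype difference. Shares and gene numbers were compared by exact permutation tests (scipy 1.17.1). These treated libraries as independent samples and did not use the pairing by mouse. The edgeR test was first run on simulated counts with the same dispersion for all genes and cell types. That run therefore does not cover the larger spread of oligodendrocyte libraries.

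Alternatives were DESeq2 1.42.0 and its size factors, limma 3.58.1 (voom), library totals, no filter and a higher one, no mitochondrially encoded genes, no sex term, a robust fit, fewer mice, the mouse as block, and each replicate left out. Those with a variance of its own per cell type, without the libraries of pairs 5 and 6, with Rag2-/- replicates left out or blocked, and with replicates left out of the joint fit were chosen after seeing the data. Littermate numbers pair the libraries by design, since 1 mouse gave all its cell types. Deviations from group means correlated weakly between libraries of the same mouse (mean r 0.04 over 30 pairs, from -0.01 to 0.19) and hardly between mice (mean -0.01 over 150 pairs). The 4 oligodendrocyte libraries were distinct samples, with a chi-square per gene of at least 34.1 between any pair.

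Genes named were members of lists of known roles, the 10 protein-coding genes with the largest and the 10 with the smallest fold change among those different from each type without overlap, the 10 nuclear ones most abundant per kilobase, and the 10 most variable over oligodendrocyte libraries at a mean of 10 CPM or more. The libraries, lists and tests were chosen with earlier results of these data known. Gene annotation was GENCODE on GRCm39, and promoters were those of RefSeq on GRCm38.p6. A few genes that this rule or the lists name are not reported here.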

Additional observations from a re-analysis of the deposited data

Results flagged for a closer look

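In 132 groups of 4 oligodendrocyte or 6 other libraries tested for a sample far from the others, 17 had one, where chance gives about 5% (1 in 20) of such groups. All 10 of the most variable oligodendrocyte genes were among them by their choice, since each was high in 1 library. Dok4 was at 46 CPM, Synpo2 at 71.2 and Tie1 at 43.9 in replicate 6. Tmprss7 was at 84 CPM, Zfp341 at 102, Cfap46 at 54.3, Slfn8 at 47, Pwwp2b at 56 and Chrna7 at 62.3 in replicate 5, and Tigd5 was at 56.5 in replicate 3. None of the 10 is a myelin gene, and 9 of them peaked in replicate 5 or 6. Over all 19368 genes tested, replicate 5 was highest for 4690 and replicate 6 for 5080.

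Among genes of the lineage, Ermn stood apart in replicate 1 at 845 CPM, where the other 3 libraries were at 524 to 572. Zfp488, a partner of OLIG2, was low in replicate 6 at 1.31 CPM, against 34, 34.9 and 34.3 in the others. Hes5 was at 4.93 CPM in replicate 1, and Elovl7 was lowest in replicate 5 at 73.5 CPM, a small distance. Cdca7 in replicate 3 (0.121 CPM), Trim43c in replicate 1 (0.123 CPM) and Neu3 in replicate 3 (0.241 CPM) were each the only library above 0, at or under 3 counts.

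Of the 85 genes named with a fold change, 2 (2.35%) had an oligodendrocyte contrast that differed between genotypes in the joint edgeR fit, a share near the 2.54% of all genes tested. Galc had a log2 fold change of -0.35 in controls and 0.49 in Rag2-/- mice (difference 0.87, adjusted p = 0.0182). Notch1 was at -2.09 and -2.95 (difference -0.84, adjusted p = 0.0247). With a variance of its own for each group neither passed, at adjusted p = 0.897 and 0.95.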

How the results depend on the processing

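Of 3143 values of 85 named genes under the alternatives, 3087 kept their direction and their side of the threshold, 48 were no longer called, 5 became called and 3 reversed. The calls of 73 of the 85 genes held under every setting. Without the libraries of pairs 5 and 6, Pmp22 moved to a log2 fold change of 0.0005 and Cd9 to 0.42, and Cd9 ranged from -0.69 without replicate 3 to 0.0365 without replicate 5. None of these was called except Cd9 at -0.69.

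The count of genes called fell to 4551 with a variance of its own per cell type. Genes higher than in each type numbered 216 under library totals and genes lower 2483, and genes lower numbered 318 in voom with quality weights, 278 in the 4 mice with oligodendrocytes, 246 with a variance per cell type and 276 without the libraries of pairs 5 and 6. Those higher numbered 522 to 951 under the other settings. With each replicate left out in turn, 6347 to 7625 genes were called, 713 to 859 were higher than in each type and 357 to 729 lower, the last without oligodendrocyte replicate 3. In Rag2-/- mice the ranges were 613 to 811 and 746 to 1092. The genotype difference called 468 to 1039 genes, the last without control oligodendrocyte replicate 1, and 0 genes with a variance per group (1118 at an unadjusted p under 0.05).

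With the mouse as replicate block, 6714 genes were called, 669 higher and 463 lower than in each type, and 594 and 710 in Rag2-/- mice. Among the named genes the block changed the call of Tcf7l2 alone. Without mitochondrially encoded genes the difference in genes detected was -883 from astrocytes and 115 from microglia. Leaving out replicates gave -3195 to -2540 from OPCs, -1891 to -1235 from astrocytes and -1961 to -1306 from microglia. The median astrocyte marker rose to 5.27% and the median OPC gene to 12.7% of their own level under TMM, the median microglia marker to 7.28% without mitochondrially encoded genes, and oligodendrocyte markers in microglia went from 0.433% on library totals to 0.246% and 0.229% under these scalings. In astrocytes they went from 39.0% to 26.1% and 27.3%, and in OPCs from 6.32% to 3.07% and 4.09%. The causes were not tested. Depth limits the scarce genes, since 3 counts are 0.453 CPM in an oligodendrocyte library.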

Other observations

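Mural cell and fibroblast markers summed to 14.7, 15.6, 98.7 and 139.5 CPM in the oligodendrocyte libraries of pairs 1, 3, 5 and 6, and endothelial markers to 5.06, 6.76, 16.1 and 22.9 CPM. Both sums were highest in the libraries of pairs 5 and 6, where the neuron markers were highest too. Astrocyte markers summed to 1543, 1272, 2225 and 4019 CPM, also highest in pairs 5 and 6, while microglia markers (566, 1392, 895 and 412 CPM) and OPC genes (1217, 2055, 1486 and 953 CPM) peaked in pair 3. Lymphocyte markers summed to 0.493, 0, 0 and 2.46 CPM and Schwann cell markers to 0.979 CPM or less.

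Between oligodendrocyte libraries, log2 levels correlated across genes with Pearson's r from 0.839 to 0.93, highest for pairs 1 and 3. Genes are not independent replicates, so these values describe the libraries.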
